A study of Mus musculus with 6 samples.

Results

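Small nucleolar RNA (snoRNA) genes were examined in mouse melanocytes after an siRNA against Dicer. Members were chosen by name and selected on their mean signal over all arrays, and the class itself was taken up with its differences between the groups already known. A gene was counted if it had a Snora or Snord symbol or was typed as snoRNA in the RefSeq gene table, and if a transcript cluster of the array named that gene alone. Of 7623 named genes 211 were snoRNA genes, and 113 of them had a mean log2 signal over all 6 arrays at or above 4.15, the 30th percentile of named genes, which left them among the 5336 genes tested. The 113 were 4 Snora genes (H/ACA box), 10 Snord genes (C/D box) and 99 predicted genes with Gm symbols, whose box class the symbols do not give. The other 98, namely Snord85, Snord90 and 96 predicted genes, lay under the limit. Gm22020 (4.17) and Gm25502 (4.17) were just inside it, and Gm22371 (4.14) and Gm26421 (4.13) just outside.

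The cells were Melan-a, an immortalised pigmented melanocyte line from a female C57BL/6 mouse, grown with fetal serum and 200 nM of the phorbol ester TPA. Each culture received 50 pmol of siRNA, either siDicer or the control siScr, with a lipid reagent and magnetic particles, so transfection itself was common to both groups. There were 3 arrays in each group, called biological replicates by the submitters, and replicates 1, 2 and 3 were cells of passages 47, 54 and 56 in both groups. The titles give 48 h after transfection, whereas the treatment protocol has new medium after 6 h and lysis 24 h later. Both groups were the same unmodified line, so the data describe a transient knockdown in 1 cell line. Dicer1 itself was not analysed here, so neither the knockdown nor the group labels could be checked on it.

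Small nucleolar RNAs are short nuclear RNAs that mostly guide chemical changes of ribosomal RNA. Those with H and ACA boxes guide pseudouridylation together with dyskerin, Nop10, Nhp2 and Gar1, and those with C and D boxes guide 2′-O-methylation together with fibrillarin, Nop56, Nop58 and Snu13, while a few act in the cleavage of the ribosomal RNA precursor. In mammals most lie in introns of other genes, often of genes for ribosomal proteins, translation factors or noncoding RNAs, and are released by trimming of the spliced intron. Dicer cuts microRNA precursors, and fragments of some snoRNAs are also known as its products.

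Array medians lay between log2 4.63 and 4.68 and arrays correlated at 0.993 to 0.997. The 3 measured melanocyte markers Tyrp1, Slc24a5 and Pax3 had mean log2 signals of 10.54 to 12.83, and their log2 signals summed to 33.31 to 34.31 in siDicer and to 33.72 to 34.83 in siScr. The other 8 of the 11 melanocyte markers were not analysed here. The measured markers of keratinocytes (3 of 6, at 3.93 to 6.90), fibroblasts (2 of 6, at 5.24 to 6.32) and leukocytes (4 of 6, at 2.84 to 5.12) had summed log2 signals that overlapped between the groups. None of the markers listed was at 0. In a bulk culture, fewer cells that carry a transcript and less transcript per cell cannot be told apart. The array siScr replicate 2 (passage 54) stood apart for these genes: it had the lowest signal of the 6 arrays in 14 of 14 named snoRNA genes and in 49 of all 113, and the highest in 30. Results without it are given for the median over snoRNA genes, the gaps between classes and some of the single genes. Array weights in limma gave it the lowest weight (0.477).

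The 4 H/ACA genes were higher in siDicer, and 3 of them, Snora41, Snora16a and Snora75, rose in limma's test once passage was taken as a block (a term in the fit that pairs the cultures of each passage), as did 1.14% of all genes tested. Their log2 differences ran from 0.40 to 0.84 (n = 3 arrays a group). In each of the 4 the lowest siDicer array lay above the highest siScr array, as was so for 6.67% of all genes tested.

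Snora41, which lies in the span of the translation elongation factor gene Eef1b2, had log2 signals of 6.49, 6.23 and 6.22 in siDicer and 5.55, 5.43 and 5.60 in siScr at passages 47, 54 and 56. The groups did not overlap and the siScr arrays lay within a narrow range. The log2 difference was 0.78 ± 0.090 (SE), a 1.72-fold higher signal, which missed the threshold of 0.05 without the block (limma, adjusted p = 0.0646) and passed it with the block (limma, adjusted p = 0.0074). Differences at the 3 passages were 0.94, 0.80 and 0.61. Over the alternatives without a block its limma adjusted p ran from 0.0288 to 0.307.

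Snora16a, in the span of the noncoding host gene Snhg12, had log2 signals of 9.24, 8.67 and 8.73 in siDicer and 8.31, 7.54 and 8.27 in siScr. Every siDicer array was above every siScr array, and siScr at passage 54 was the lowest. The difference of 0.84 ± 0.23 (SE) was the greatest among the snoRNA genes tested, a 1.79-fold higher signal, and it passed in the passage-blocked fit (limma, adjusted p = 0.0284) and not without it (limma, adjusted p = 0.287). Without siScr replicate 2 the difference was 0.59.

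Snora75, in the span of the nucleolin gene Ncl, had log2 signals of 5.89, 5.69 and 6.13 in siDicer and 5.53, 5.33 and 5.63 in siScr. The groups came close without overlapping, at 5.69 against 5.63. The difference was 0.40 ± 0.12 (SE), with 0.36, 0.36 and 0.50 at the 3 passages (limma blocked by passage, adjusted p = 0.0300, and adjusted p = 0.365 without it). Snora73b, an RNA of the kind that acts in precursor cleavage, in the span of Snhg3, had log2 signals of 9.55, 9.25 and 9.17 in siDicer and 8.96, 8.41 and 8.91 in siScr. It differed by 0.56 and did not pass in either fit (limma, adjusted p = 0.313 without and 0.0526 with the block). Without siScr replicate 2 the Snora73b difference was 0.39.

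Among the 10 C/D genes 4, Snord11, Snord87, Snord73a and Snord45b, rose with passage as a block (1.14% of all genes did), and all 10 had a higher mean in siDicer, by 0.19 to 0.73 (45.5% of all genes had one). In 6 of the 10 the groups did not overlap, against 6.67% of all genes.

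Snord17, in the span of the sorting nexin gene Snx5, had log2 signals of 10.08, 9.80 and 9.68 in siDicer and 9.29, 8.67 and 9.40 in siScr. The groups did not overlap, yet the difference was 1.13 at passage 54 and 0.28 at passage 56. Over all arrays it was 0.73 ± 0.19 (SE), 1.66-fold, and it missed the threshold with the block as well (limma, adjusted p = 0.267 without and 0.0585 with it). Without siScr replicate 2 the difference was 0.51.

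Snord87, in the spans of Snhg6 and Mcmdc2, had log2 signals of 10.13, 9.84 and 10.05 in siDicer and 9.70, 9.30 and 9.62 in siScr. All siDicer arrays were higher, and the differences of 0.43, 0.54 and 0.43 at the 3 passages were near one another. The difference was 0.47 ± 0.12 (SE), 1.38-fold (limma, adjusted p = 0.267 without and 0.0284 with the block). It was 0.35 without siScr replicate 2.

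Snord11, in the span of Nop58, which codes for a core protein of the C/D particle, had log2 signals of 8.89, 8.37 and 8.51 in siDicer and 8.26, 7.58 and 8.10 in siScr. In the blocked fit it rose by 0.61 (limma, adjusted p = 0.0271, and 0.394 without it), and the groups did not overlap. Leaving out siScr replicate 2 gave a difference of 0.41. Snord70, in the same span, had log2 signals of 8.07, 7.96 and 8.34 in siDicer and 7.77, 7.72 and 7.76 in siScr. The groups did not overlap here either, but the difference of 0.37 did not pass (limma blocked by passage, adjusted p = 0.0813).

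Snord73a, in the span of the ribosomal protein gene Rps3a1, had log2 signals of 7.61, 7.30 and 7.50 in siDicer and 7.29, 6.62 and 7.0 in siScr. The lowest siDicer array, 7.30, was level with the highest siScr array, 7.29. In the blocked fit it rose by 0.50 (limma, adjusted p = 0.0340, and 0.417 without the block), and the difference was 0.32 without siScr replicate 2. Snord45b, in the span of the prenyltransferase subunit gene Rabggtb, had log2 signals of 7.41, 6.96 and 7.21 in siDicer and 6.97, 6.70 and 6.85 in siScr. Its groups overlapped, while within each passage siDicer was the higher array. In the blocked fit Snord45b rose by 0.35 (limma, adjusted p = 0.0480, and 0.452 without the block).

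The remaining C/D genes did not pass. Snord110, in the span of Nop56, had log2 signals of 10.91, 10.45 and 10.49 in siDicer and 10.45, 9.85 and 10.36 in siScr, a difference of 0.40 that became 0.21 without siScr replicate 2. Snord55 had 11.82, 11.29 and 11.28 in siDicer and 11.24, 10.93 and 11.33 in siScr, a difference of 0.30 that became 0.12 without siDicer replicate 1. At passage 56 its siDicer array was the lower of the pair, by 0.044. Snord89, which lies in no other gene's span, had 7.37, 6.86 and 6.85 in siDicer and 6.90, 6.38 and 6.89 in siScr. Its difference of 0.30 became 0.13 without siDicer replicate 1, and passage 56 gave -0.031. Snord82, in the Ncl span like Snora75, had 10.61, 10.30 and 10.48 in siDicer and 10.39, 10.14 and 10.27 in siScr. Its difference of 0.19 was the least among the named genes and became 0.12 without siDicer replicate 1. In these last 3 genes the groups overlapped.

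**Figure D1:**
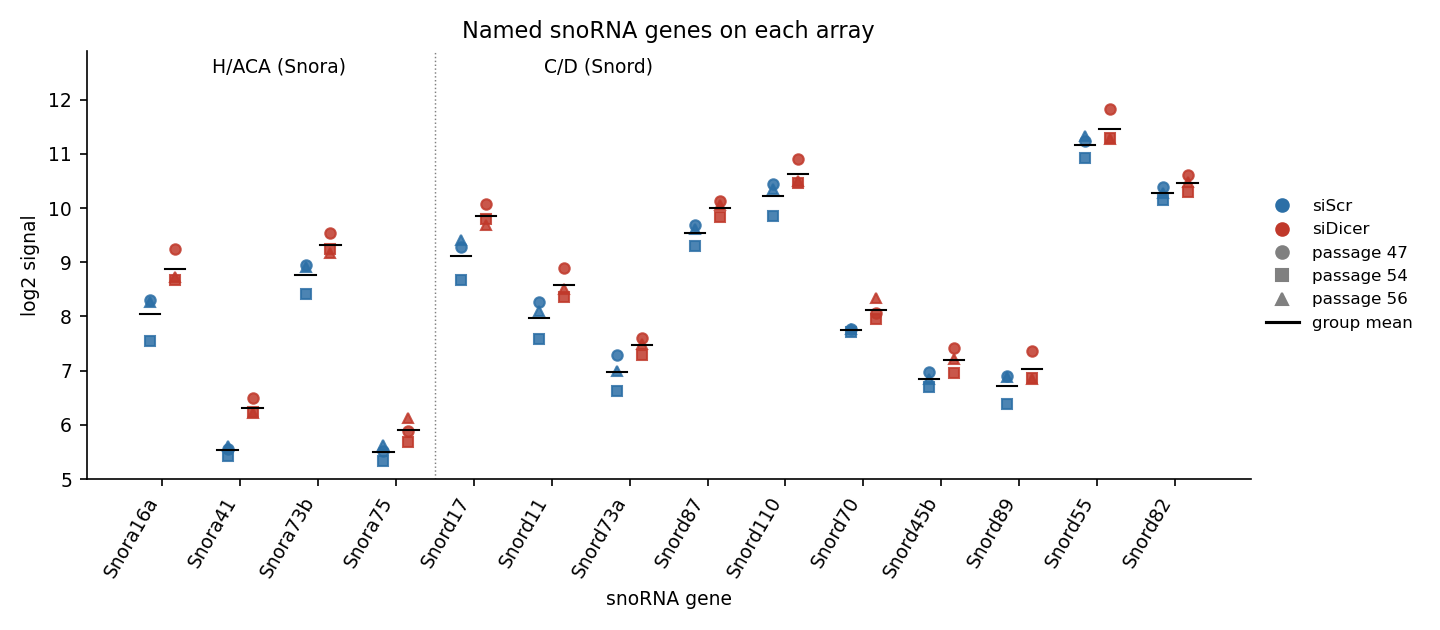
The log2 signal of each of the 14 named snoRNA genes (vertical axis) is plotted for every array, siScr in blue and siDicer in red, with the marker shape giving the passage and a black line the mean of 3 arrays. The siDicer mean is the higher in every gene, by 0.19 for Snord82 to 0.84 for Snora16a, and the square for siScr at passage 54 is the lowest point of each gene.

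Averaged over the 14 named genes, the log2 signal was 8.86, 8.50 and 8.62 in siDicer and 8.33, 7.90 and 8.28 in siScr at passages 47, 54 and 56. The lowest siDicer array was thus above the highest siScr array, and within each group passage 54 was lowest. The mean over all genes tested stayed between 6.64 and 6.66 on every array. The array siDicer replicate 1 was the highest in 12 of the 14.

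The H/ACA genes had a median difference of 0.67 (4 genes, range 0.40 to 0.84) and the C/D genes one of 0.38 (10 genes, range 0.19 to 0.73). The gap between the medians was 0.29 over all arrays, and 0.31, 0.31 and 0.16 at passages 47, 54 and 56 (SD 0.086 over the 3 passages). The ranges of the 2 classes overlapped: Snora75 (0.40) lay below Snord17 (0.73), Snord11 (0.61), Snord73a (0.50) and Snord87 (0.47). Without siScr replicate 2 the gap was 0.19. No test was made of it, and the genes of a class are not replicates of a condition.

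Without a block, limma called 0 of the 113 snoRNA genes at an adjusted p under 0.05, where it called 0.0187% of all 5336 genes, and none of these upward. At an unadjusted p under 0.05, 30 snoRNA genes were higher and 0 lower, that is 26.5% of 113 against 4.59% of all genes for higher and 3.92% for lower. With 1 array left out the number higher ran from 21 to 36, and up to 4 were lower. Groups did not overlap in 31 snoRNA genes with siDicer above (27.4%, against 6.67% of all genes) and in 3 with siDicer below, against 7.76%. Gm22192 and Gm25632 are counted separately in the 30 and in the 31, although their values were identical on every array.

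With passage as a block, limma called 15 of the 113 snoRNA genes (13.3%) as risen, against 1.14% of all genes, and 0 as fallen, against 0.618%. At an unadjusted p under 0.05 this fit had 41 higher, against 7.63% of all genes, and 0 lower, against 6.13%. Gm22192 and Gm25632, with identical values, are counted separately in the 41 as well. The 15 were 7 named and 8 predicted genes, with differences of 0.35 to 0.84 and limma adjusted p of 0.0074 to 0.0480. In 14 of them the groups did not overlap, against 6.67% of all genes, but that is read from the values that picked the 15. In all 15 the array siScr replicate 2 was the lowest, and in 12 siDicer replicate 1 was the highest. Leaving out the arrays of passage 47 gave 0 calls, leaving out those of passage 54 gave 1 and leaving out those of passage 56 gave 23. Over all genes tested the same fits called 5, 18 and 154, against 94 with all passages. The number of snoRNA genes called was 1, Snora41, when all 16383 transcript clusters were fitted together, and 2 when dim genes were kept. Over all genes these counts were 9 and 22. Snora41 also passed without the block when array medians were centred or arrays weighted.

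**Figure D2:**
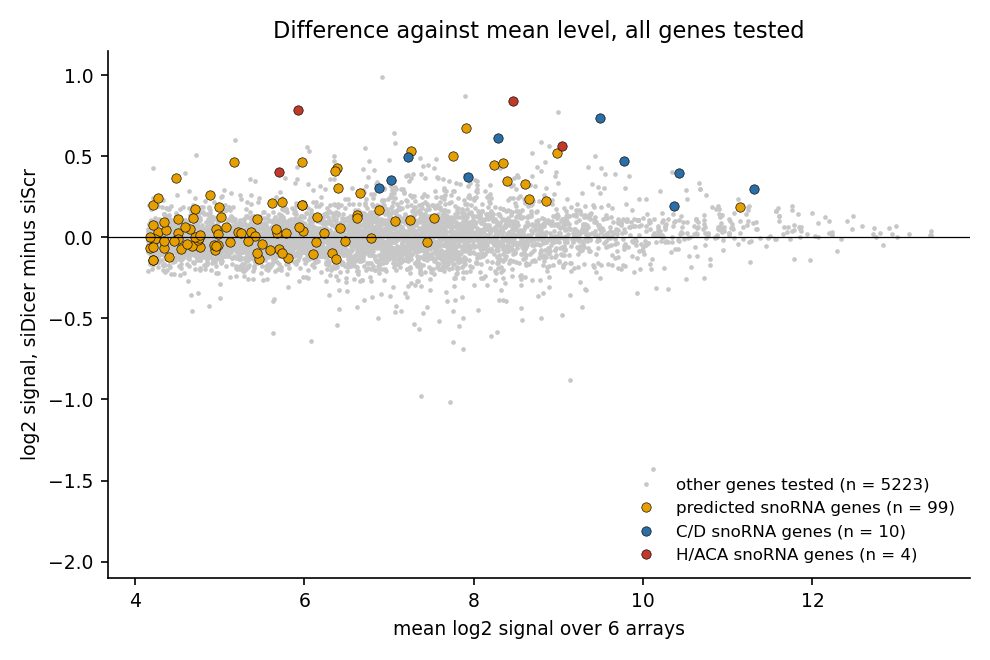
Each point is a gene tested, with its mean log2 signal over 6 arrays on the horizontal axis and its siDicer minus siScr log2 difference on the vertical axis; grey points are other genes and coloured points the H/ACA, C/D and predicted snoRNA genes. The 14 named genes all lie above 0, at 0.19 to 0.84, while the predicted genes spread from -0.14 to 0.68.

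The 99 predicted snoRNA genes had a median difference of 0.035, with 61 higher and 38 lower, and 8 of them (8.08%) rose in the blocked fit. The median difference of the named genes was greater than theirs by 0.40 over all arrays and by 0.39, 0.57 and 0.33 at the 3 passages (SD 0.12). Without siScr replicate 2 that gap was 0.25, and with array weights it was 0.29. The siDicer array was the higher at all 3 passages in 12 of 14 named genes (85.7%) and 35 of 99 predicted genes (35.4%), against 16.1% of all genes. The share was 45.2% (57 of 126) among the small nuclear RNA genes tested, above that of the predicted genes. The siDicer array was the lower at all 3 in 5 of the 113 snoRNA genes and in 2 of the small nuclear RNA genes, against 20% of all genes. Over all 113 snoRNA genes 75 were higher and 38 lower with a median of 0.061, where 45.5% of all genes were higher and their median was -0.0092. Without siScr replicate 2 the median over the 113 was 0.10. The median also moved with the limit on mean signal, to 0.19 over the 65 snoRNA genes above the 50th percentile and to 0.038 over all 211.

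Gm26457, which shares the Eef1b2 span with Snora41, had log2 signals of 7.79, 7.33 and 7.46 in siDicer and 7.27, 6.75 and 6.97 in siScr. The groups did not overlap, and the difference was alike at the 3 passages, at 0.53, 0.58 and 0.49. In the blocked fit it rose by 0.53 (limma, adjusted p = 0.0162, and 0.336 without it).

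Gm23201, in the span of the noncoding RNA gene Zfas1, had log2 signals of 9.52, 9.08 and 9.14 in siDicer and 8.80, 8.56 and 8.82 in siScr, and rose by 0.52 (limma blocked by passage, adjusted p = 0.0345). Gm25188, in the span of Sh3d19, had 7.91, 7.83 and 8.27 in siDicer and 7.47, 7.42 and 7.61 in siScr, and rose by 0.50 (limma blocked by passage, adjusted p = 0.0284). Gm22980 had 8.78, 8.41 and 8.53 in siDicer and 8.27, 7.92 and 8.15 in siScr, and rose by 0.46 (limma blocked by passage, adjusted p = 0.0284). In these 3 genes too every siDicer array was above every siScr array.

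Gm26287 in the Nop58 span rose by 0.47, Gm22786 in the span of the proteasome subunit gene Psmd1 by 0.43 and Gm26165 in the Snx5 span by 0.41 (limma blocked by passage, adjusted p = 0.0376, 0.0304 and 0.0340). Without siScr replicate 2 these differences were 0.35, 0.29 and 0.31. Gm24988 was the 1 gene among the 8 outside any other gene's span. Its log2 signals were 5.49, 5.18 and 5.52 in siDicer and 5.06, 4.83 and 4.91 in siScr, without overlap, and it rose by 0.47 (limma blocked by passage, adjusted p = 0.0284). A pair in the span of Pabpc4, a gene for a poly(A)-binding protein, had large differences that did not pass. Gm25788 differed by 0.68 and Gm22154 by 0.44 (limma blocked by passage, adjusted p = 0.0755 and 0.114), and at passage 56 the differences were 0.20 and 0.10.

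No predicted gene fell. Gm23711 and Gm24091 differed by -0.14, and their values were identical on every array, so they count as 1 measurement. Gm25604 was at -0.14 and Gm22497 at -0.13, and Gm25604 came first among the lower genes by p-value (limma, adjusted p = 0.626). Gm22192 and Gm25632, in the Prrc2b span, likewise had identical values, at a difference of 0.20.

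Predicted genes inside another gene's span and those outside were compared next, since named snoRNA genes mostly lie inside. The 52 inside had 36 higher and 16 lower, a median of 0.11 and 7 that rose with the block (13.5%). The 47 outside had 25 higher and 22 lower, a median of 0.0083 and 1 that rose (2.13%). At the 3 passages the median was 0.15, 0.087 and 0.066 inside and 0.046, -0.039 and 0.045 outside. The groups did not overlap with siDicer above in 14 of the 52 (26.9%) and in 7 of the 47 (14.9%). Over all genes 1.14% rose with the block and 6.67% did not overlap with siDicer above, so the share that rose among the genes outside was near that of all genes.

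Signal and length went along with position. Among the predicted genes with a mean log2 signal of 7 or above, 14 of 15 were higher, with a median of 0.33, and among those under 7, 47 of 84 were higher, with a median of 0.026. Under 7 the median was 0.029 for 40 genes inside and -0.0018 for 44 outside. Across the 99 predicted genes signal and difference correlated at Pearson 0.53 and Spearman 0.42, and across the 14 named genes at Pearson -0.23. Genes are not independent replicates. Of the predicted genes of 100 bases or shorter, 12 of 15 were higher, with a median of 0.21, against 49 of 84 longer ones, with a median of 0.028. The short ones were 13 of the 52 inside and 2 of the 47 outside. The limits of 7 and of 100 bases were set after the values were seen, and which of these features goes with the difference by itself was not tested.

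**Figure D3:**
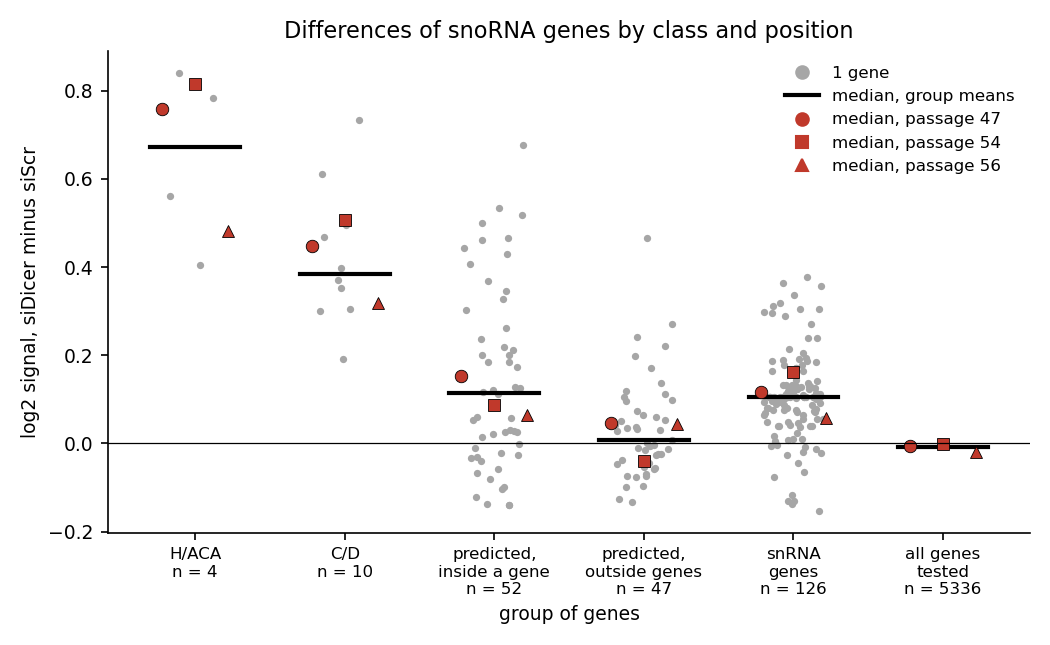
The siDicer minus siScr log2 difference of each snoRNA gene (vertical axis) is a grey point, by class, beside 126 small nuclear RNA genes; black lines are medians and red symbols medians within each passage, and for all 5336 genes tested only medians are drawn. The medians are 0.67 for H/ACA, 0.38 for C/D, 0.11 for predicted genes inside another gene and 0.0083 for predicted genes outside, against -0.0092 for all genes.

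Genes in the same span were next set beside each other and beside the gene that holds them. A total of 54 RefSeq spans, a few of them shared by overlapping genes, held 65 of the 113 snoRNA genes, 13 of the 14 named and 52 predicted. From the span alone, strand and intron are not known. In 9 of the 10 spans that held 2 or more tested snoRNA genes, all members were higher in siDicer. In the Nop58 span Snord11, Gm26287 and Snord70 were at 0.61, 0.47 and 0.37, in the Eef1b2 span Snora41 and Gm26457 were at 0.78 and 0.53, and in the Snx5 span Snord17 and Gm26165 were at 0.73 and 0.41. Members of 1 span also differed among themselves, as did Snora75 (0.40) and Snord82 (0.19) in Ncl.

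The first bases of 5 of these holding genes are shown because genes that hold snoRNAs often begin at a run of pyrimidines (C and T), the 5′ terminal oligopyrimidine tract. The 60 bases run from 50 before the RefSeq start in lower case to the first 10 of the transcript in capitals, on the gene's strand, from RefSeq on GRCm38.p6.
Eef1b2, chr1:63176781-63176840, plus strand: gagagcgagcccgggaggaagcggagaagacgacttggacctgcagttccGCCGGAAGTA
Snhg12, chr4:132308628-132308687, plus strand: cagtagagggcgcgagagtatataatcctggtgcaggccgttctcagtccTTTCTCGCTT
Nop58, chr1:59684956-59685015, plus strand: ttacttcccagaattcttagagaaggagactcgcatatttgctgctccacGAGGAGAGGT
Ncl, chr1:86359446-86359505, minus strand: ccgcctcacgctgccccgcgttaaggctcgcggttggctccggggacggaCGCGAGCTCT
Snx5, chr2:144270563-144270622, minus strand: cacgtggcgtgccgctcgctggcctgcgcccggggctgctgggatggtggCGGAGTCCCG
Of the 5, Snhg12 had a run of at least 8 bases made only of C and T on the gene's strand in this window, across its start. Such a run was present in 11 of the 44 genes with a sequence that hold a tested snoRNA gene (25%), in 1 of the 10 that hold one that rose (10.0%) and in 24.9% of all 27025 genes in the promoter table. Runs of A and G, which are the same run on the other strand, were present in 12 of the 44 (27.3%), 4 of the 10 (40.0%) and 24.4% of all. The run could lie anywhere in this window, most of which is before the start. These shares therefore cannot show whether a transcript begins at such a tract. A match is only a description of these letters. The RefSeq sequences used here held none of the 211 snoRNA genes.

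The holding genes themselves differed less than the snoRNAs in them. For 42 snoRNA genes the holding gene was also tested and was 1 gene, and these were 34 genes. None of the 34 was called by limma with or without the block (19 higher, 15 lower). Over all genes 0.0187% were called without the block, and 1.14% higher and 0.618% lower with it, so 0 of 34 is near those shares. At an unadjusted p under 0.05 there were 3 of the 34 without the block and 4 with it. Of all genes, 4.59% were higher and 3.92% lower at that limit without the block, and 7.63% and 6.13% with it. The snoRNA gene's difference was above that of its holding gene in 32 of 42 cases, with medians of 0.20 and 0.056 and a median gap of 0.19. It was above in 7 of 7 named genes, whose median was 0.50 against 0.15 for the holding genes.

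Eef1b2 differed by 0.17 (limma, adjusted p = 0.574), where Snora41 and Gm26457 were at 0.78 and 0.53. Nop58 and Snx5 each differed by 0.15 and Ncl by -0.023, under the differences of the snoRNA genes in their spans. The 10 snoRNA genes with a difference below that of the holding gene were all predicted genes. Gm22300 was at -0.098 in Tmem245, itself at 0.32, and Gm24173 at 0.021 in Prex2, itself at 0.32. Gm23734 was at 0.35 while Mgat5, which holds it, was at -0.19. Across the 42 pairs the differences correlated at Pearson 0.20 and Spearman 0.32, as a description over genes that share arrays and in part share a holding gene. For the 7 named genes, which lie in 5 holding genes, the values were 0.70 and 0.82. For the 35 predicted genes they were 0.10 and 0.21.

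**Figure D4:**
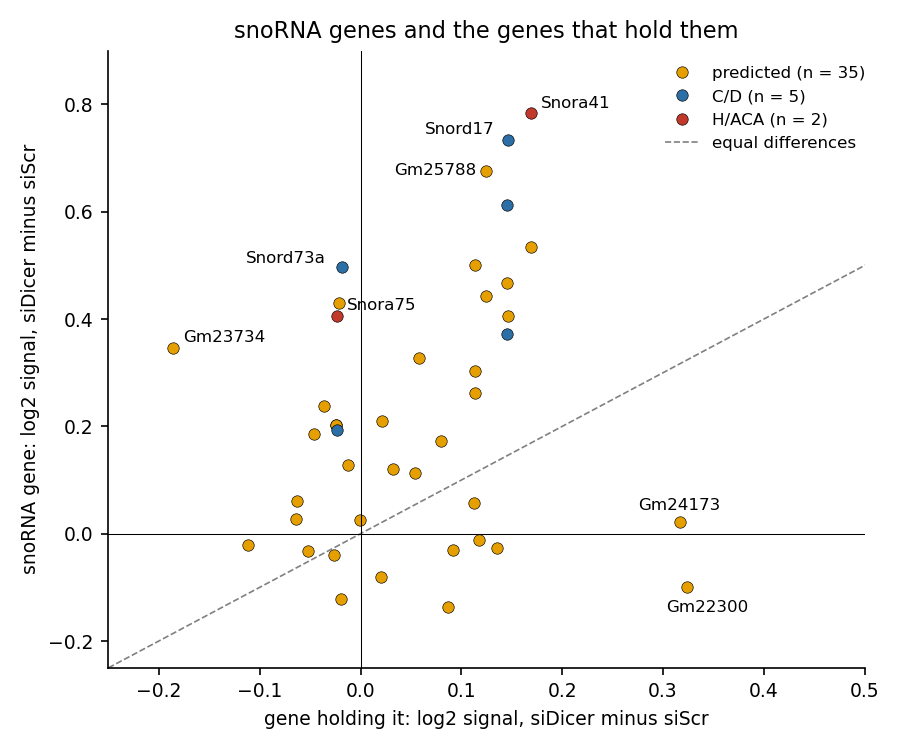
For the 42 snoRNA genes with a tested holding gene, the log2 difference (siDicer minus siScr) of the snoRNA gene is plotted against that of the gene holding it, and the dashed line marks equal differences. Points above the line, 32 of 42, are snoRNA genes with the greater difference, and the 7 named ones are all above it.

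Genes of the snoRNA pathway were looked at by lists. Of the H/ACA core proteins 2 of 4 were tested, and Nop10 was at -0.15 and Gar1 at -0.047. Of the C/D core proteins 1 of 5, Nop58, was tested. Of 19 genes listed as assembly and Cajal body factors 3 were tested. The assembly factor Znhit6 was at -0.14, the cap hypermethylase Tgs1 at -0.12 and Zfp593, whose role in this class was not checked, at 0.031. None of these passed in either fit.

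Of 27 factors that trim or degrade snoRNAs 8 were tested, 4 higher and 4 lower with a median of -0.036. Xrn2, the nuclear exoribonuclease that trims RNA from the 5′ end, had log2 signals of 8.23, 8.26 and 8.44 in siDicer and 8.81, 8.85 and 8.79 in siScr. All siDicer arrays were lower, and in the blocked fit the signal fell by 0.51 (limma, adjusted p = 0.0284, against 0.113 unblocked). The exosome subunits Exosc3, Exosc10 and Exosc2 were at -0.20, 0.13 and 0.14 and did not pass. Of 53 factors of ribosomal RNA transcription and early processing 14 were tested, 10 higher and 4 lower with a median of 0.015, and none passed in either fit. Imp4 was at 0.24 and Rrs1 at -0.22. The lists were read against the same 1.14% and 0.618% of all genes that passed with the block.

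Other short RNA genes were measured on the same arrays. Of 126 tested small nuclear RNA genes, the splicing RNAs and their copies, 111 were higher, with a median of 0.11, and 1, Gm25360, rose with the block (0.38, limma, adjusted p = 0.0444), a share of 0.794% against 1.14% of all genes. Near-identical copies among them can share probes. Averaged over these genes the log2 signal was 7.79, 7.64 and 7.75 in siDicer and 7.69, 7.51 and 7.68 in siScr, again lowest at passage 54. The 133 tested microRNA genes had 71 higher and 62 lower and a median of 0.0063. Of 10 tested genes that RefSeq types as guide RNA, 7 were higher and 3 lower, with a median of 0.041 and a range of -0.026 to 0.43, and none rose with the block. Among them Scarna2, a Cajal body RNA, differed by 0.012. The groups did not overlap with siDicer above in 14 small nuclear RNA genes (11.1%) and 3 microRNA genes (2.26%), against 27.4% of snoRNA genes and 6.67% of all genes tested. By passage, however, siDicer was the higher at all 3 in 57 small nuclear RNA genes (45.2%) and the lower at all 3 in 2. For snoRNA genes the share higher at all 3 was 41.6%, and for all genes 16.1%. No test was made between these classes.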

How the data were processed

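Total RNA of 6 cultures was hybridised to Affymetrix Clariom D mouse arrays, 100 ng each. The authors deposited 1 log2 signal for each transcript cluster and array; the submitters' processing notes name Affymetrix Expression Console without a version. That they are on the log2 scale was read from the range of the values (1.70 to 13.70). For the normalisation, the centring, the annotation release and the build, the sources used here give nothing. Scanner files were not used here, so signal over background is unknown, and precision is limited by how many arrays there were. The probes can also read precursor and host transcripts, and signals of different probes do not rank transcripts by abundance.

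The table held 16383 clusters, on chromosomes 1 to 4. The platform annotation gave 7676 of them 1 gene, 309 several and 8398 none, and 329 symbols were updated through the RefSeq table, which held the genes of all 7676 clusters, 7660 with the same chromosome. The cluster with the highest mean stood for a gene; no snoRNA gene had several. The siDicer and siScr arrays entered limma 3.58.1 under R 4.3.3 (lmFit, then eBayes with trend), a two-sided test adjusted by Benjamini-Hochberg over 5336 genes at a threshold of 0.05, first without and then with passage as a replicate block. An exact permutation test of 3 against 3 has 10 splits and a least p of 0.1. The script was also run on simulated data without a passage effect, so that run does not check the pairing that the blocked fit uses.

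Replicate numbers pair the samples because the labels give each number 1 passage in both groups; deviations from the group means correlated at 0.42, 0.62 and 0.07 for passages 47, 54 and 56. The members, gene lists and rule for naming genes were chosen with earlier results of these data known, so the higher snoRNA signals are no independent finding. Named were all Snora and Snord genes, snoRNA genes called in either fit, those of smallest p in each direction, those beside the signal limit, holding genes (some are not reported here), and up to 4 genes of each list by smallest p. Gm25788, Gm22154, Gm22192, Gm25632, Gm24173, Gm23734 and Gm25360 were added after their values were seen. Alternatives varied the left-out array, the normalisation, array weights, the filter, the cluster per gene, the features fitted and the variance prior.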

Additional observations from a re-analysis of the deposited data

Results flagged for a closer look

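Clusters that name several genes were not used above. Of 10 that included a snoRNA gene, 9 were higher in siDicer, with a median of 0.15, and in 4 (40.0%) all siDicer arrays lay above all siScr arrays, against 6.80% of all 309 such clusters. These 4 were Nop56 with Snord57 (log2 difference 0.11), Zfas1 with Snord12 (0.21), Snhg7 with Snora17 and Snora43 (0.21) and Rabggtb with Snord45c (0.17). Such a cluster can read the host transcript as well as the snoRNA.

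Of the 98 snoRNA genes too dim to be tested, 57 were higher and 41 lower, with a median of 0.018. Snord85 had log2 signals of 4.04, 4.0 and 3.79 in siDicer and 3.77, 3.66 and 3.71 in siScr, a difference of 0.23 without overlap, and Snord90 differed by 0.17 with overlap.

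In 2 of the 14 named genes, passage 56 went the other way from passages 47 and 54. Snord55 was at -0.044 there, against 0.58 and 0.36, and Snord89 at -0.031, against 0.47 and 0.48. With 1 array per group at each passage, the difference between passages was not tested.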

How the results depend on the processing

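The median over snoRNA genes and both gaps between classes stayed above 0 in every alternative run for them; keeping 1 gene of each pair with identical values was not run for the gap between H/ACA and C/D genes, none of which had such a pair. The count of snoRNA genes called was 0 without a block and 15 with passage as a replicate block (94 of all genes). Without the block it was 1 with array medians centred (2 of all genes), 1 with array weights (14) and 0 in the other alternatives, including each left-out array. With the block it was 0 without replicate 1, 1 without replicate 2 and 23 without replicate 3 (passages 47, 54 and 56). It was 15 after quantile normalisation or median centring and 16 without a trend in the variance prior. With no filter on dim genes it was 2, and with all transcript clusters fitted 1. Over all genes the blocked counts were 5, 18 and 154 without replicates 1, 2 and 3. They were 105 after quantile normalisation, 99 after median centring, 101 without a trend, 22 with no filter and 9 with all clusters fitted. Of the 15 genes, 14 were also called without passage 56, 15 after quantile normalisation and 14 after median centring. The variants that combine the block with another choice, other than leaving out a passage, and those that keep 1 gene of each pair with identical values were chosen after seeing the data. The cause of these changes was not tested.

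With 1 array left out the median over snoRNA genes ran from 0.053 to 0.10, the gap between named and predicted genes from 0.25 to 0.50 and that between H/ACA and C/D genes from 0.19 to 0.32; the value farthest from the full result was in each case that without siScr replicate 2. The median was 0.19 with the filter at the 50th percentile, which kept 65 snoRNA genes. The differences of 26 single snoRNA genes kept their sign with each array left out in turn, and leaving out 1 array changed the difference by over 1.5 times in 5 of the 14 named genes. Without the block, p-values of the full fit measure the spread of 3 cultures a group. With the block they measure the spread of the 3 differences within passages. In both fits limma also draws the spread of each gene towards that of all genes.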
